A study of Rattus norvegicus with 12 samples.

Results

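The genes described here are 38 markers of T cells, B cells and plasma cells, set among 22830 gene identifiers measured in rat jejunum, the middle part of the small intestine, and liver. They were taken by gene symbol from a fixed list, and 37 of them were matched in at least 1 of both expression tables. The jejunum table, with 21568 genes, held 37 members, and the liver table, with 18703 genes, held 33. Gzmb, which encodes granzyme B, was matched in neither table, and Cd5, Tnfrsf17, Il17a and Il22 were not matched in liver.

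The study sequenced poly(A) RNA from Wistar Han rats that were divided at random into an antibiotics-treated group and a group named wild type. Antibiotics-treated rats received 5 mL/kg of a mixture into the stomach for 2 weeks, made of 10 g/L vancomycin, 20 g/L each of metronidazole, neomycin sulfate and ampicillin, and 0.2 g/L of amphotericin B, which acts on fungi. Wild-type rats received the same volume of saline over the same 2 weeks, and the labels name no genetic change in either group. There were 3 libraries of each group in each tissue, 12 in all. The labels do not say whether each library is 1 animal, so p-values measure the spread between these libraries, and they give no age or sex.

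T cells recognise antigen through a receptor that signals through the CD3 chains and the kinases LCK and ZAP70, with CD4 or CD8 as coreceptor. B cells signal through an antigen receptor that holds CD79A and CD79B, and B cells that become plasma cells secrete antibody, in the gut mostly IgA joined by the J chain and carried across the epithelium. The small intestine holds many such cells, with CD8 T cells that carry the integrin encoded by Itgae between epithelial cells, and the liver holds T cells and natural killer cells that store granzymes and perforin. Antibiotics remove gut bacteria, and the comparison here asks whether RNA of these immune cells differed between antibiotics-treated and wild-type rats in either tissue.

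Total reads ranged from 14592126 to 18322008 per jejunal library and from 15017775 to 19318616 per liver library. Few of them came from these genes. The members together held 539, 988 and 1217 reads in the jejunal antibiotics libraries, against 701, 1254 and 466 in the jejunal wild-type libraries. In liver they held 675, 975 and 1126 reads in the antibiotics libraries, against 570, 903 and 911 in the wild-type libraries. Genes of the mitochondrial genome took 64.8%, 51.3% and 38.7% of jejunal antibiotics reads, against 63.0%, 26.8% and 80.7% of jejunal wild-type reads. In liver they took 4.48%, 3.93% and 3.60% of antibiotics reads, against 25.0%, 6.42% and 16.0% of wild-type reads, so these groups did not overlap. Jejunal wild-type library 3, with 80.7% mitochondrial reads, thus stands apart and gave the fewest reads for the members. Values below are the authors' normalized counts, which are reads divided by 1 factor per library, unless another scale is named.

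At this depth most members were low. The members tested had a median mean of 10.8 normalized counts in jejunum, against 90.8 for all genes tested, and of 7.44 in liver, against 88.7 for all genes tested. A mean of at least 10 reads was reached by 18 members in jejunum and 15 in liver, and 17 and 21 had a read in every library of that tissue. The deposited FPKM, a unit of fragments scaled to gene length, followed the normalized counts from library to library. In FPKM averaged over the 6 libraries of a tissue, the highest levels in jejunum were those of Jchain (13.0), Cd3g (12.7), Lat (4.45), Cd4 (3.79), Ccl5 (3.62) and Itgae (2.51). Single libraries raised some of these means. Wild-type library 3 had 38.9 for Jchain and 13.1 for Ccl5, against 4.92 to 9.84 and 1.04 to 3.11 in the other jejunal libraries. Wild-type library 2 had 33.8 for Cd3g, against 2.06 to 12.2 in the others. In liver the order of FPKM was Ccl5 (9.46), Cd4 (7.11), Jchain (3.96), Gzma (3.36) and Lat (1.72), followed by Nkg7 and Cd22 at the same rounded value (1.68). Since these are bulk samples, fewer cells of a type and less RNA per cell cannot be told apart.

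In jejunum, 0 of the 34 members tested differed between antibiotics and wild type (limma on log2 of the normalized count plus 1, adjusted p under 0.05), where 1.28% of all 19450 genes tested did, 0.761% higher and 0.519% lower. At an unadjusted p under 0.05 there were 3 members, Ccr7, Cxcr5 and Ccl5, where 22.2% of all genes passed. edgeR called 0 members and DESeq2 called 1, Ccl5, which is also the only member past 0.05 in the authors' deposited table (8.22% of its genes). Of the 34, 19 lay above 0 and 15 below, with a median log2 fold change of 0.22, against 0.06 for all genes tested, of which 47.1% lay below 0. The sign of the members' median was not stable: it was −0.32 and −0.30 by edgeR with TMM and RLE (12 of 19 members below 0), −0.40 over the 11 members with at least 1 CPM, −0.11 without antibiotics library 3 and −0.07 without wild-type library 1. The antibiotics libraries did not overlap the wild-type libraries for 5 members, or 14.7%, against 27.9% of all genes. They lay higher for Cd8a, Zap70, Cxcr5 and Ccr7 (16.6% of all genes) and lower for Ccl5 (11.3% of all genes). The other 3 listed members, Cd5, Tnfrsf17 and Il17a, had a mean under 1 normalized count and were not tested.

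**Figure D1:**
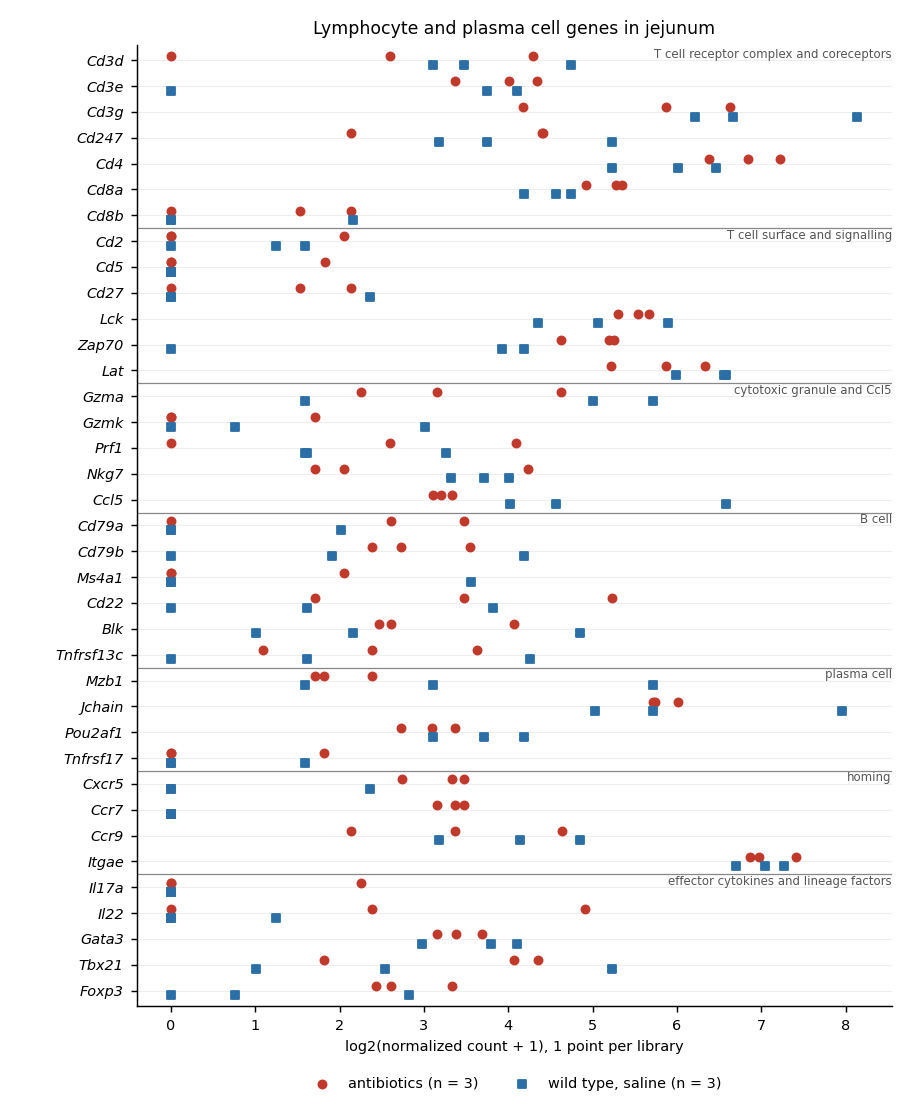
Level of each member in each jejunal library, as log2 of the normalized count plus 1, with antibiotics as red circles above wild type as blue squares and genes grouped by role. The red and blue points overlap for most genes. Ccr7 is at 0 in all 3 wild-type libraries, and Ccl5, Jchain and Mzb1 have 1 wild-type library far to the right.

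Of the 7 jejunal genes of the T cell receptor complex and coreceptors, 4 lay above 0 and 3 below, with 0 called. Cd3g, a signalling chain of the receptor, had 57.6, 98.3 and 17.0 normalized counts in antibiotics libraries and 100.1, 281 and 73.1 in wild-type libraries. The highest wild-type library stood far above the rest, and the groups overlapped (log2 fold change −1.44, SE 0.68, limma adjusted p = 0.240). The log2 fold change was −0.88 without wild-type library 2, −0.75 without antibiotics library 3 and −0.82 with a correction for gene length. The neighbouring genes of the same complex did not share its level, with mean FPKM of 1.17 for Cd3d and 0.601 for Cd3e beside 12.7 for Cd3g. Cd4, the coreceptor of helper T cells, which in the rat macrophages make too, had 114, 82.2 and 148 normalized counts in antibiotics libraries, against 86.9, 63.5 and 36.6 in wild-type libraries. Antibiotics library 2 alone fell inside the wild-type range, so these groups overlapped as well (log2 fold change 0.91, SE 0.45, limma adjusted p = 0.257).

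Cd8a, a coreceptor chain of cytotoxic T cells, had 29.4, 39.8 and 37.8 normalized counts in antibiotics libraries and 17.2, 22.8 and 25.8 in wild-type libraries. All 3 antibiotics libraries were higher, by a margin that did not pass the test (log2 fold change 0.68, SE 0.54, limma adjusted p = 0.485). Its partner chain gene Cd8b was close to 0, with a mean of 1.76 ± 1.70 normalized counts in antibiotics and 1.15 ± 1.99 in wild type (SD, n = 3 each). Cd247, the zeta chain of the receptor, ran from 3.39 to 20.3 in antibiotics libraries and from 8.09 to 36.6 in wild-type libraries.

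Among the genes of T cell surface and signalling, Lat and Zap70 act just below the receptor, LAT as an adaptor and ZAP70 as a kinase. Lat had 36.2, 79.6 and 57.3 normalized counts in antibiotics libraries and 95.0, 93.2 and 62.4 in wild-type libraries. Only the second antibiotics library reached into the wild-type range (log2 fold change −0.57, SE 0.45, limma adjusted p = 0.482), and the log2 fold change was −0.28 without antibiotics library 1. Zap70 had 23.7, 35.6 and 37.2 normalized counts in antibiotics libraries and 14.2, 17.3 and 0 in wild-type libraries. The groups did not overlap, and the 0 came from wild-type library 3 (log2 fold change 2.32, SE 1.06, limma adjusted p = 0.231), without which the log2 fold change was 0.97. Lck, the kinase that phosphorylates the CD3 chains, averaged 44.6 ± 5.82 normalized counts in antibiotics and 36.8 ± 20.0 in wild type, and Cd2 and Cd27 averaged at most 1.76 in both groups.

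The cytotoxic genes and Ccl5 together made 5 genes in jejunum, of which 4 lay below 0, with a median log2 fold change of −0.76. Ccl5, a chemokine made by activated T and natural killer cells, had 9.04, 7.62 and 8.19 normalized counts in antibiotics libraries and 15.2, 22.8 and 94.6 in wild-type libraries. Every antibiotics library was lower, and wild-type library 3 was several times above the rest. The log2 fold change was −1.84 (SE 0.78, 95% interval −3.57 to −0.11, limma adjusted p = 0.201). Leaving out wild-type library 3 gave −1.08. The authors' deposited table gives Ccl5 a log2 fold change of −2.38 with an adjusted p of 0.0387. Gzma, which encodes granzyme A, spread over 3.78 to 23.7 normalized counts in antibiotics libraries and 2.02 to 51.6 in wild-type libraries, and Prf1, Nkg7 and Gzmk had at most 17.8 in any library.

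Of the 6 jejunal B cell genes 5 lay above 0 by limma, and all 3 plasma cell genes tested lay below 0, with 0 called. The B cell signs depended on the method: the authors' deposited log2 fold changes were below 0 for Ms4a1 (−1.66), Blk (−0.26) and Tnfrsf13c (−0.29). They were above 0 for Cd79a, Cd79b and Cd22. Cd79b, a signalling chain of the B cell receptor, had 5.65, 4.24 and 10.7 normalized counts in antibiotics libraries and 0, 2.76 and 17.2 in wild-type libraries. Cd22, an inhibitory receptor of B cells, had 2.26, 10.2 and 36.5 in antibiotics libraries and 13.1, 2.07 and 0 in wild-type libraries. Both groups spread widely and overlapped (log2 fold changes 0.86, SE 1.11, and 1.66, SE 1.21, limma adjusted p = 0.684 and 0.449). With 1 library left out, the log2 fold change ran from −0.16 to 1.93 for Cd79b (without wild-type libraries 1 and 3) and from 0.75 to 2.66 for Cd22 (without wild-type libraries 3 and 1). Ms4a1, which encodes CD20, had a read in 1 antibiotics and 1 wild-type library, so a difference in it was not detectable at this depth.

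Jchain, the joining chain of IgA and IgM, had 63.3, 51.7 and 52.3 normalized counts in antibiotics libraries and 51.6, 31.8 and 247 in wild-type libraries. The antibiotics libraries lay close together, and the wild-type spread came from library 3. The log2 fold change was −0.42 (SE 0.67, limma adjusted p = 0.752), and its sign turned when that library was left out, to 0.45. Mzb1, a chaperone of antibody assembly, followed the same library, with 2.26, 4.24 and 2.52 in antibiotics libraries and 2.02, 7.59 and 51.6 in wild-type libraries (log2 fold change −1.50, SE 1.08, limma adjusted p = 0.443). Its log2 fold change was −0.38 without that library and −2.44 without wild-type library 1. Pou2af1, a coactivator of B cell transcription, was more even, at 5.65 to 9.32 in antibiotics libraries and 7.59 to 17.2 in wild-type libraries.

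Of the 4 jejunal homing genes, 3 lay above 0 and 1 below. Ccr7, the receptor that guides lymphocytes and dendritic cells into lymphoid tissue, had 7.91, 9.32 and 10.1 normalized counts in antibiotics libraries and 0 in every wild-type library. These are 7, 11 and 16 reads against 0, at least 2.36-fold higher with antibiotics when a floor of 3 reads per wild-type library is used, which covers counting error only. The test missed the threshold (limma adjusted p = 0.0679, from 0.0554 to 0.266 over the limma alternatives that tested it). The edgeR fits, DESeq2 and the filter of at least 1 CPM gave Ccr7 no adjusted p. Cxcr5, which directs B cells and helper T cells to follicles, had 9.04, 10.2 and 5.67 in antibiotics libraries and 0, 4.14 and 0 in wild-type libraries. All antibiotics libraries were higher, again on few reads (log2 fold change 2.39, SE 0.96, limma adjusted p = 0.180).

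Itgae, the alpha chain of the integrin that binds intestinal T cells to E-cadherin, was the best measured homing gene. It had 124, 169 and 115 normalized counts in antibiotics libraries and 154, 130.5 and 103 in wild-type libraries. The ranges lay over each other (log2 fold change 0.07, SE 0.34, limma adjusted p = 0.922). Ccr9, the gut homing receptor for CCL25, ran from 3.39 to 23.9 in antibiotics libraries and from 8.09 to 28.0 in wild-type libraries.

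Among effector cytokines and lineage factors, Il22, a cytokine that acts on epithelium, had 0, 4.24 and 29.0 normalized counts in antibiotics libraries and 0, 1.38 and 0 in wild-type libraries. The high value was 1 library, and 1 antibiotics and 2 wild-type libraries were at 0 (log2 fold change 2.01, SE 1.23, limma adjusted p = 0.363). The log2 fold change was 0.78 without antibiotics library 3 and 3.23 without antibiotics library 1. Gata3, Tbx21 and Foxp3, factors of helper and regulatory T cells, averaged 9.74 ± 1.99, 12.6 ± 8.93 and 6.18 ± 2.50 in antibiotics, and 12.0 ± 4.70, 14.1 ± 19.5 and 2.25 ± 3.32 in wild type (SD, n = 3 each). All of their ranges overlapped.

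Other lists of genes gave the setting of these values in jejunum. Of other T cell and natural killer genes, 0 of 31 tested were called and the median log2 fold change was 0.10. Of other B cell and plasma cell genes, 0 of 28 were called (median −0.15), and of genes of lymphocyte homing and IgA transport 0 of 23 (median 0.01). The genes for the antigen receptor constant chains Trac, Trbc1, Trbc2, Trdc, Igha, Ighg, Igkc and Iglc1 were not matched in either table. Of 10 smooth muscle markers 3 were called higher (Kcnmb1, Synpo2 and Lmod1), with a summed level of 175627 to 193871 normalized counts in antibiotics libraries and 46297 to 135329.9 in wild-type libraries. Of 9 adipocyte markers 0 were called and all lay below 0 (median −2.10), with sums of 3663 to 9730.4 in antibiotics libraries and 8769 to 55519 in wild-type libraries. Of 16 myeloid markers 1, Mpo, was called lower (median −0.35), and 0 were called of 11 enterocyte (median −0.58), 10 hepatocyte (−0.61), 10 lymphoid follicle and M cell (0.03), 15 cell cycle (−1.03) and 7 red cell markers (−0.96). The part of the muscle and fat markers in the members' values was not tested.

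In liver, 1 of the 32 members tested was called, Gzma, which fell with antibiotics, where 12.8% of all 16540 genes tested were called with 7.93% higher and 4.89% lower. This share of members, 3.12%, is below that of all genes. At an unadjusted p under 0.05 there were 7 members, Gzma, Cd8a, Lat, Tbx21, Cd3e, Cxcr5 and Itgae, where 31.7% of all genes passed. The members below 0 numbered 21 and those above 0 numbered 11, with a median log2 fold change of −0.43, against −0.01 for all genes, of which 50.3% lay below 0. The size of the members' median varied, from −0.16 without antibiotics library 1 to −0.72 without wild-type library 2. It was −0.28 with a correction for gene length. The antibiotics libraries did not overlap the wild-type libraries for 11 members, or 34.4%, against 37.8% of all genes. They lay lower for 9, namely Ccl5, Gzma, Nkg7, Cd8a, Gzmk, Cd79b, Tbx21, Cd247 and Cd27 (18.1% of all genes), and higher for 2, Ccr7 and Cd3e (19.7% of all genes). Ccr9, with a mean under 1 normalized count, was not tested.

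**Figure D2:**
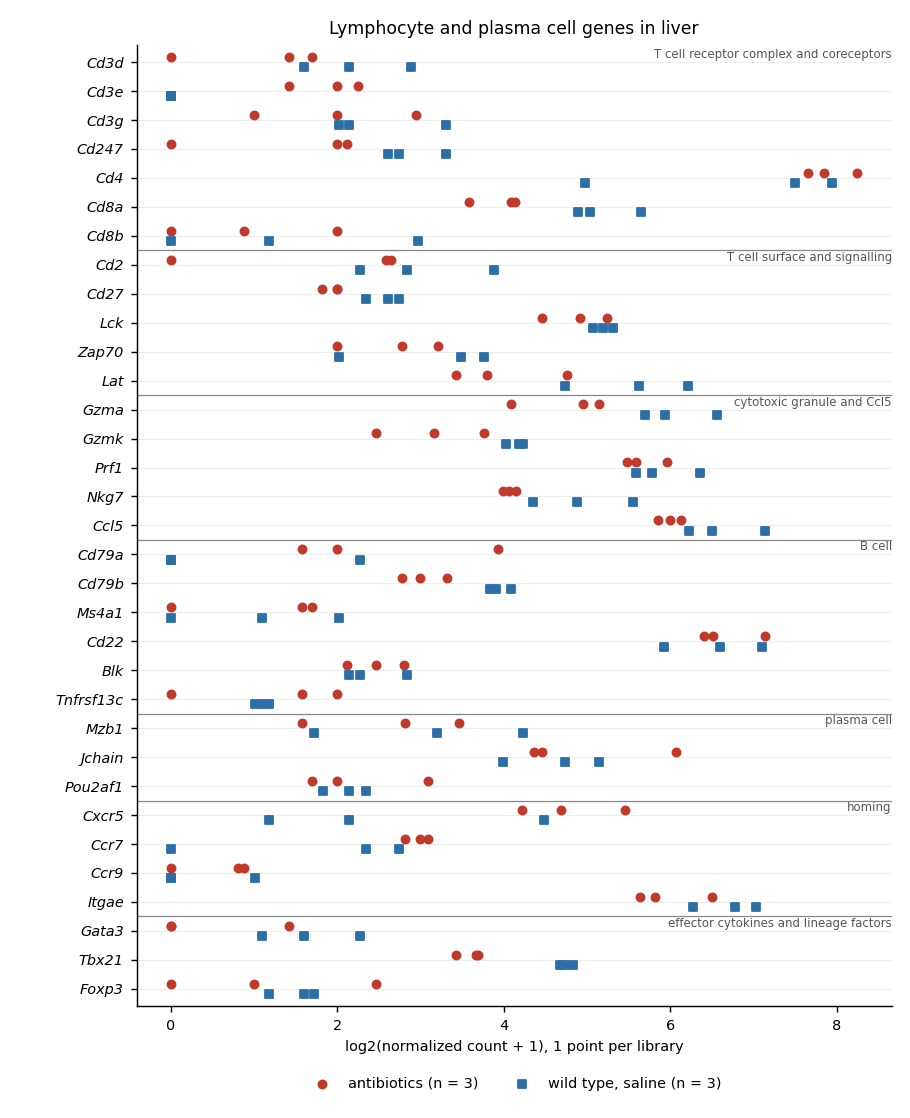
Level of each member in each liver library, as log2 of the normalized count plus 1, with antibiotics as red circles above wild type as blue squares. For Gzma, Gzmk, Nkg7 and Ccl5 all wild-type points lie to the right of the antibiotics points, and for Prf1 the points of both groups interleave. The 3 wild-type values of Tbx21 lie close together, to the right of all 3 antibiotics values.

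Gzma encodes granzyme A, a protease that cytotoxic T cells and natural killer cells release into target cells (ENSRNOG00000010603, chromosome 2, 44968765 to 44981458 in the authors' coordinates, whose genome build is not given in the sources used here). As the only member called, its promoter is shown, the 300 bases from 250 before to 50 after the start in the RefSeq table of build GRCr8, chr2:46485647-46485946, minus strand, read 5′ to 3′ on the strand of the gene. The capitals mark the reverse complement of TGTGGTT, the RUNX motif, a factor family of T cells and natural killer cells, at bases 52 to 46 before the start.

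Gzma promoter: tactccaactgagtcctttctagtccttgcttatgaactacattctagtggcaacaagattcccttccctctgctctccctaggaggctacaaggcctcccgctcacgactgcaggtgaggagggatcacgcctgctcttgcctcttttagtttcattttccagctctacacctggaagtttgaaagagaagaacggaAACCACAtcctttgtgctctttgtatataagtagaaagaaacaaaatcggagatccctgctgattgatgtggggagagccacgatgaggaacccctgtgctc

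The letters TGTGGTT, on either strand, occur in 5 of the 26 members that had a promoter in that table (Cd2, Gzma, Gzmb, Il17a and Lck) and in 5.57% of all 33469 promoters. The ETS motif GAGGAAGT occurred in 1 of the 26 members, Cd5, and in 2.42% of all promoters, and the octamer ATTTGCAT in 0 of the 26 and in 1.78% of all promoters. In the window shown TGTGGTT alone was matched, so no motifs overlap there. A match of letters is a description and not a binding site.

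Gzma had 15.9, 34.3 and 30.0 normalized counts in antibiotics libraries and 51.0, 60.3 and 93.6 in wild-type libraries. Every antibiotics library was below every wild-type library, with means of 26.8 ± 9.63 and 68.3 ± 22.4 (SD, n = 3 each). The log2 fold change was −1.34 (SE 0.39, 95% interval −2.20 to −0.48, limma adjusted p = 0.0486), and the authors' deposited table gives −1.34 with an adjusted p of 0.0180. The call lay near the threshold and ended without any 1 antibiotics library (adjusted p = 0.141, 0.0822 and 0.108 without libraries 1, 2 and 3) and without wild-type library 1 (0.0634) or 3 (0.188), all by limma. It also ended with a correction for gene length, under which the log2 fold change was −0.87 (limma adjusted p = 0.188).

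The other cytotoxic members lay on the same side, with a median log2 fold change of −0.86 over the 5 and a sum of 139, 188 and 167 normalized counts in antibiotics libraries, against 236, 239 and 361 in wild-type libraries. Ccl5 had 56.8, 62.8 and 69.0 normalized counts in antibiotics libraries and 73.9, 89.9 and 140.4 in wild-type libraries. Again no antibiotics library reached the lowest wild-type library, but the difference did not pass (log2 fold change −0.63, SE 0.29, limma adjusted p = 0.170), and it was −0.0035 with the correction for gene length and −0.37 without wild-type library 3. Nkg7, a protein of cytotoxic granules, averaged 15.8 ± 0.912 in antibiotics and 31.3 ± 13.4 in wild type, and Gzmk, granzyme K, averaged 8.34 ± 4.05 in antibiotics and 16.8 ± 1.29 in wild type. Prf1, which encodes the pore-forming protein perforin, overlapped, with 50.7 ± 9.18 in antibiotics and 60.8 ± 17.9 in wild type (log2 fold change −0.23, limma adjusted p = 0.646).

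**Figure D3:**
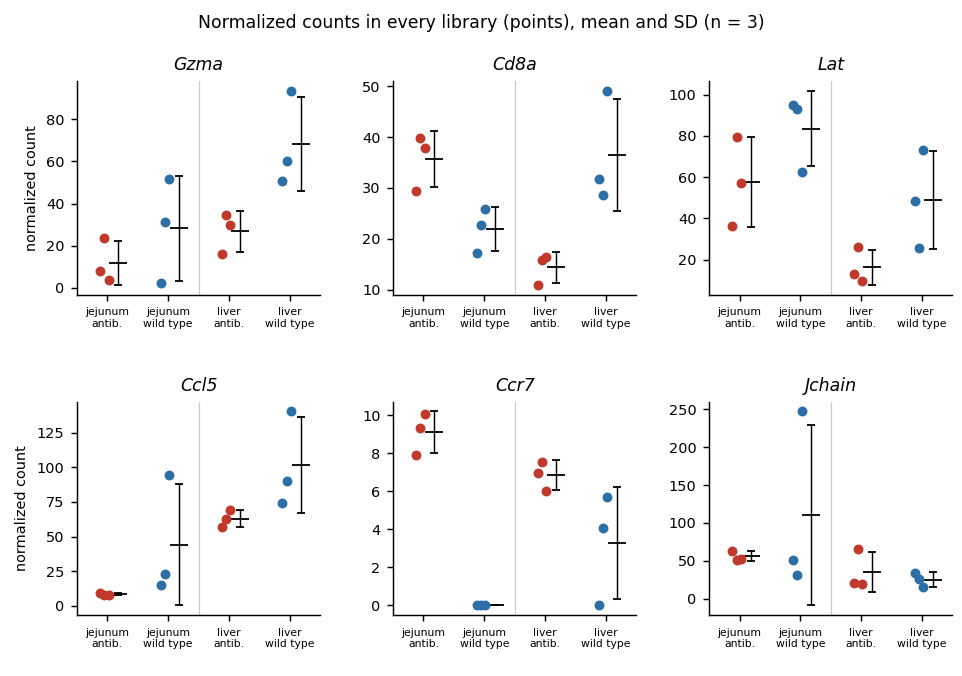
Normalized counts of 6 members, 1 panel per gene, with jejunum and then liver in each panel and antibiotics (red) left of wild type (blue). Points are libraries, and the black mark beside them is the mean with its SD (n = 3). Liver Gzma, liver Cd8a and Ccl5 in both tissues separate the groups with antibiotics lower. Jejunal Cd8a and Ccr7 in both tissues separate them with antibiotics higher, and 1 wild-type library carries the wild-type mean of jejunal Jchain.

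Among the liver genes of the T cell receptor complex and coreceptors, 5 of 7 lay below 0 and 0 were called. Cd8a had 11.0, 15.9 and 16.5 normalized counts in antibiotics libraries and 31.8, 28.6 and 49.1 in wild-type libraries. All antibiotics libraries were lower, just outside the threshold (log2 fold change −1.26, SE 0.39, limma adjusted p = 0.0600). The authors' deposited table gives Cd8a −1.33 with an adjusted p of 0.0384. Cd4 had 230.0, 201 and 303 normalized counts in antibiotics libraries and 30.6, 244 and 180.3 in wild-type libraries. The low value was wild-type library 1, which had 25.0% mitochondrial reads, and the groups overlapped (log2 fold change 1.11, SE 0.77, limma adjusted p = 0.373). Without that library the log2 fold change was 0.20, and without wild-type library 2 it was 1.68.

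The CD3 chains were close to absent from the liver reads. Cd3e had 3, 2 and 5 reads in antibiotics libraries and 0 in the wild-type libraries, so both groups were about at the floor of 3 reads per library. Cd3d and Cd3g averaged 1.31 ± 1.17 and 3.57 ± 2.89 normalized counts in antibiotics, and 3.95 ± 2.21 and 5.13 ± 3.28 in wild type. Cd247, which natural killer cells use as well, averaged 2.11 ± 1.84 in antibiotics and 6.58 ± 2.05 in wild type (log2 fold change −1.52, limma adjusted p = 0.173).

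All 5 liver genes of T cell surface and signalling lay below 0 and 0 were called. Lat had 12.9, 26.0 and 9.75 normalized counts in antibiotics libraries and 48.4, 25.5 and 73.0 in wild-type libraries. Antibiotics library 2 and wild-type library 2 met at about the same value and the others lay apart (log2 fold change −1.53, SE 0.50, limma adjusted p = 0.0668). In the authors' deposited table Lat had −1.59 and an adjusted p of 0.0299, and with Gzma and Cd8a it made 3 members past 0.05 there, where 16.5% of all its genes were. Lck averaged 29.0 ± 7.98 in antibiotics and 35.7 ± 3.06 in wild type (log2 fold change −0.32, limma adjusted p = 0.556).

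The B cell and plasma cell genes of liver had medians near 0, at 0.07 over 6 and 0.16 over 3. Cd22 had 83.6, 90.5 and 140.3 normalized counts in antibiotics libraries and 59.9, 136 and 95.9 in wild-type libraries. These ranges overlapped nearly whole (log2 fold change 0.15, SE 0.34, limma adjusted p = 0.799), and Cd22 was far above the other B cell genes, since Cd79a, Ms4a1, Blk and Tnfrsf13c averaged at most 6.41 in both groups. Cd79b had 6.97, 5.86 and 9.0 in antibiotics libraries and 14.0, 13.3 and 16.0 in wild-type libraries. Each antibiotics library was lower, on few reads (log2 fold change −0.91, SE 0.45, limma adjusted p = 0.198). Jchain had 20.9, 66.2 and 19.5 in antibiotics libraries and 34.4, 25.5 and 14.8 in wild-type libraries. Antibiotics library 2 was the high one, and without it the log2 fold change of 0.34 (SE 0.53, limma adjusted p = 0.691) turned to −0.21.

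Of the liver homing genes, Cxcr5 had 42.8, 17.6 and 24.8 normalized counts in antibiotics libraries and 1.27, 21.4 and 3.42 in wild-type libraries. Wild-type library 2 lay within the antibiotics range and the other two far below it (log2 fold change 2.18, SE 0.80, limma adjusted p = 0.0973). Itgae had 48.8, 89.6 and 55.5 in antibiotics libraries and 129.9, 76.6 and 108 in wild-type libraries. The second library of each group crossed (log2 fold change −0.71, SE 0.32, limma adjusted p = 0.157). Ccr7 averaged 6.84 ± 0.778 in antibiotics and 3.26 ± 2.94 in wild type.

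Tbx21 encodes T-bet, the factor of type 1 helper T cells and natural killer cells. It had 11.9, 11.7 and 9.75 normalized counts in antibiotics libraries and 25.5, 24.5 and 27.4 in wild-type libraries. Both groups were tight and apart (log2 fold change −1.15, SE 0.38, limma adjusted p = 0.0739). Gata3 and Foxp3 averaged at most 2.34 normalized counts in both groups.

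**Figure D4:**
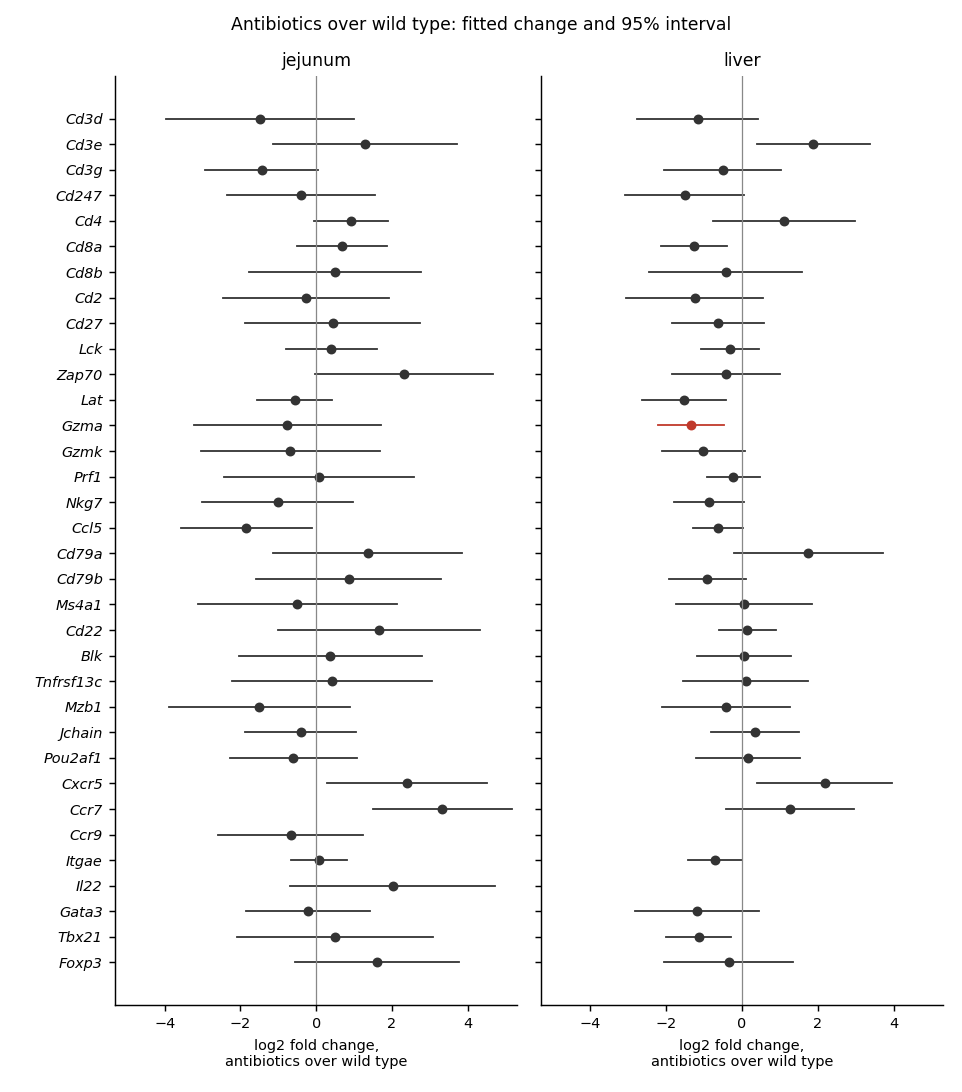
Log2 fold change of antibiotics over wild type with its 95% interval (limma) for each member tested, in jejunum and in liver, with members past an adjusted p of 0.05 in red. Most intervals cross 0, Gzma in liver is the single red point, and the liver points lie below 0 for 21 of 32 members.

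Other liver lists, with calls by limma, gave 1 call lower of 26 other T cell and natural killer genes (median −0.26). This was Lag3, an inhibitory receptor of activated T cells, at 13.2 ± 3.70 in antibiotics and 71.7 ± 40.4 in wild type (log2 fold change −2.25, limma adjusted p = 0.0161). Of 27 other B cell and plasma cell genes 1 was called lower, Irf8 (median −0.02), and of 20 genes of homing and IgA transport 2 were called lower, the follicle chemokine gene Cxcl13 and the cytokine gene Il15 (median 0.17). Il15, which sustains CD8 T cells and natural killer cells, had 20.7 ± 3.26 in antibiotics and 76.0 ± 39.8 in wild type (log2 fold change −1.70, limma adjusted p = 0.0308). Myeloid markers had 1 called higher (S100a8) and 4 lower of 18, among them Cd68 and C1qc (median −0.38).

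Red cell markers moved with the same groups in liver. Of 7, 4 were called lower, with a median log2 fold change of −1.54 and a summed level of 10352 to 23371 normalized counts in antibiotics libraries, against 34706 to 76001 in wild-type libraries. The hemoglobin gene Hba-a2 had 3133 ± 982 in antibiotics and 11300.4 ± 4810.2 in wild type (limma adjusted p = 0.0203). The part of the red cell markers, or of the mitochondrial share, in the members' values was not tested. Calls in the remaining liver lists were 0 of 9 for smooth muscle (median −0.14), 1 lower of 5 for adipocytes (Cfd, median −0.10), 1 lower of 7 for enterocytes (Fabp1, median 0.11), 1 higher and 2 lower of 11 for hepatocytes (median 0.04), 1 lower of 7 for lymphoid follicles and M cells (Cxcl13, median −0.25) and 1 higher of 15 for the cell cycle (Ccnb1, median 1.32).

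The response to antibiotics was then compared between the tissues, as the difference of both log2 fold changes, jejunum minus liver. Of 24 members tested, 0 were called (edgeR), where 0.0564% of all 14187 genes were. The labels do not say whether same-numbered jejunum and liver libraries come from the same rat, and the test treats all 12 as independent. At an unadjusted p under 0.05 there was 1, Cd8a, where 19.8% of all genes passed. Its difference was 2.11 (edgeR adjusted p = 0.111). limma called 0 members here and DESeq2 called 1, Cd8a, with 2.15 and an adjusted p of 0.0136. Cd8a thus lay above wild type in all jejunal antibiotics libraries and below it in all liver antibiotics libraries, and the test of that difference passed with 1 tool of 3. Gzma, called in liver alone, had a difference of 0.23 (edgeR adjusted p = 0.941), so its response is not shown to differ between the tissues.

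Levels in jejunum and liver are given side by side in CPM, recovered reads scaled to the reads of a library outside mitochondrial genes, without a test, since both tables were normalized apart. The members together took 93.9 to 127 CPM in jejunal antibiotics libraries and 103 to 133 in jejunal wild-type libraries. In liver they took 39.5 to 60.5 in antibiotics libraries and 50.6 to 67.0 in wild-type libraries. Of the 33 members matched in both tissues, 7 were higher in all 6 jejunal libraries than in any liver library, namely Cd3g, Lck, Lat, Pou2af1, Ccr9, Itgae and Gata3. Prf1 was the 1 member higher in every liver library, and the ranges of the other 25 overlapped. The share of all genes that separate the tissues in this way was not computed, so these counts only describe the members.

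Ccr9 had the highest ratio of means between jejunum and liver among these 33, followed by Cd3g. Ccr9 had at most 1 read in any liver library, so its rank above Cd3g is not settled. Ccr9 had a mean of 2.14 CPM in jejunum and 0.0303 in liver, and Itgae had 19.4 in jejunum and 5.72 in liver. Cd3g averaged 14.8 in jejunum, with a range from 2.68 to 38.1, and 0.298 in liver, with a range from 0.0585 to 0.621. Prf1 averaged 0.825 in jejunum and 3.73 in liver. Cd4 had the same mean, 13.3, in both tissues. Among wild-type libraries alone, 10 members were higher in jejunum, 3 were higher in liver (Gzmk, Prf1 and Cd22) and 20 overlapped. Here too the share of all genes was not computed.

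**Figure D5:**
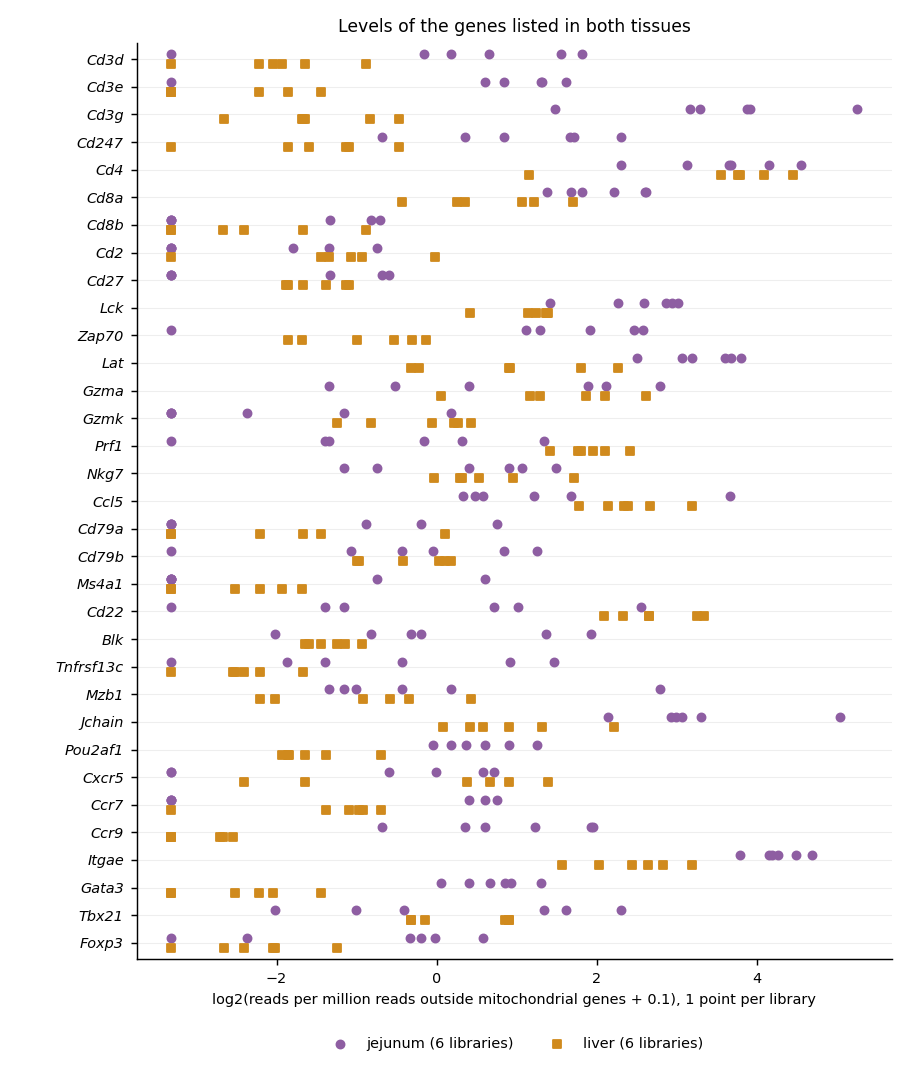
Level of each member matched in both tissues, as log2 of CPM outside mitochondrial genes after adding a small constant, with jejunum as purple circles above liver as orange squares and 1 point per library. Ccr9, Cd3g and Itgae lie to the right in jejunum, Prf1 lies to the right in liver, and Cd4 lies at about the same level in both.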

How the data were processed

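Paired reads of poly(A) RNA were processed by the authors with CASAVA 1.4, HISAT2 2.0.5 and DESeq2 1.20.0, per the submitters' processing notes. The genome build, the counting tool and the use of strand are not given in the sources used here, so overlapping and antisense genes, and close copies within gene families, cannot be told apart. The deposited count columns hold a normalized signal. Multiplying each library by its own factor turned 100% of the values into whole reads, within 0.01 reads. The authors also deposited FPKM, and their own log2 fold changes, p-values and adjusted p-values, per the file headers.

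In R 4.3.3, limma 3.58.1 (trend, robust) was run in each tissue on log2 of the normalized count plus 1, over all genes with a mean of at least 1, adjusted by Benjamini-Hochberg over all of them (threshold 0.05). For low genes a log2 fold change on this scale can be smaller or larger than the one the authors deposited. Jejunal Ccr7 had 3.33 against their 5.44, and jejunal Zap70 had 2.32 against their 1.53. The difference between tissues was tested with edgeR 4.0.16 (quasi-likelihood, TMM, filterByExpr) on recovered reads of 16531 identifiers shared by both tables. DESeq2 1.42.0 was an alternative. The fits were tested on simulated data, with changes placed only in genes of higher counts than most members, so the simulation does not cover those members. Intervals are 95%. The labels give no meaning to the replicate numbers, and they were not taken as pairs, since not every correlation of same-numbered libraries was over 0.1: these were 0.24, 0.28 and 0.09 in jejunum, and 0.12, −0.15 and −0.19 in liver.

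The members and lists were chosen with earlier results of these data known. Values per library are given, in each tissue and role, for the member with the highest mean FPKM and the member with the smallest p, and for members past the threshold. Cd4 and Cd8a in jejunum, and jejunal Cxcr5, were added after their values were seen, as were the values of other members given by mean or range. Of genes outside the members, at most the 3 with the smallest p per list are named. Promoters come from RefSeq, build GRCr8, where 26 of 38 members matched by symbol.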

Additional observations from a re-analysis of the deposited data

Results flagged for a closer look

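Cd8a had opposite directions in the tissues. Its log2 fold change of antibiotics over wild type was 2.11 higher in jejunum than in liver (edgeR adjusted p = 0.111), with 29.4, 39.8 and 37.8 normalized counts in jejunal antibiotics libraries against 17.2, 22.8 and 25.8 in jejunal wild-type libraries, and 11.0, 15.9 and 16.5 in liver antibiotics libraries against 31.8, 28.6 and 49.1 in liver wild-type libraries. The groups did not overlap in either tissue, in opposite directions, which is what drew attention to it. The difference missed the threshold by edgeR and by limma (1.94, adjusted p = 0.116) and passed by DESeq2 (2.15, adjusted p = 0.0136). It kept its sign under every alternative run, with adjusted p from 0.0136 to 0.249.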

How the results depend on the processing

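Of the named members' values under the alternatives, 345 kept their direction and side of the threshold, 9 gained and 9 lost the call, and 11 changed sign. All 9 lost calls were those of liver Gzma, which also lost it with a pseudocount of 0.1 (limma adjusted p = 0.0538), TMM scaling (0.0522) and library totals (0.103). The sign changes were, as log2 fold changes, Cd79b in jejunum without wild-type library 1 (−0.16), Itgae in jejunum with the length correction (−0.16), without antibiotics library 2 (−0.090) and without wild-type library 3 (−0.08), Jchain in jejunum with library totals (0.084), the length correction (0.29) and without wild-type library 3 (0.45), Cd22 in liver with the length correction (−0.051), without antibiotics library 3 (−0.08) and without wild-type library 1 (−0.16), and Jchain in liver without antibiotics library 2 (−0.21). With 1 library left out these ran from −0.16 to 1.93 (Cd79b), −0.090 to 0.21 (jejunal Itgae), −1.02 to 0.45 (jejunal Jchain), −0.16 to 0.42 (Cd22) and −0.21 to 0.64 (liver Jchain). The causes were not tested.

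Jejunal members called were 0 under each alternative except DESeq2, with 1. Jejunal calls over all genes, 249 (148 higher, 101 lower), were 160 with a pseudocount of 0.1, 65 with library totals (61 higher, 4 lower, the median of all genes at 0.50), 97 (39, 58) and 125 (61, 64) by edgeR with TMM and RLE, 1800 by DESeq2, 24 with the length correction and 1 to 1902 with 1 library left out. Liver members called, 1, were 0 with a pseudocount of 0.1, TMM scaling, library totals or the length correction, 2 without the filter (Cd3e, Gzma) or by edgeR with TMM (Cd8a, Gzma), 3 by DESeq2 (Cd8a, Gzma, Lat) and 0 to 5 with 1 library left out, where the 5 (Cd8a, Cxcr5, Gzma, Itgae, Lat) came without wild-type library 2. Liver calls over all genes, 2121, ran from 74 to 4416 with 1 library left out, and library totals gave 1115 higher and 415 lower, against 1312 and 809. For the tissue difference, calls over all genes, 8, were 13 without the filter, 887 by DESeq2, 85 by limma and 0 to 834 with 1 library left out, and members called were 1 by DESeq2.

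With replicate number as a block, limma called 1625 jejunal and 1779 liver genes and edgeR 91 for the tissue difference, with 0, 1 (Gzma, adjusted p = 0.0496) and 0 members. In jejunum each library correlated best with its own number, in liver not every one did.

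Depth limits these results, since 18 of 37 jejunal and 15 of 33 liver members averaged at least 10 reads, and differences of the lowest genes were not detectable.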

Other observations

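Jejunal wild-type library 3 had 80.7% mitochondrial reads and 466 reads over all members. It had the highest normalized count of the 6 jejunal libraries for Jchain (247), Mzb1 (51.6), Ccl5 (94.6), Tbx21 (36.6), Blk (28.0) and Gzma (51.6). The same held for Cd3d, Cd247, Cd79b, Ms4a1, Pou2af1 and Ccr9. It was at 0 for Zap70, Cd3e, Cd22 and Foxp3, and also for Ccr7, Cxcr5, Tnfrsf13c, Cd79a, Cd2, Cd27, Cd8b, Gzmk, Il22, Cd5, Tnfrsf17 and Il17a. The jejunal antibiotics libraries had at most 3.78 normalized counts for Gzmk, Cd8b, Cd2, Cd27, Ms4a1, Cd5, Il17a and Tnfrsf17.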
